A study of Mus musculus with 6 samples.

Results

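The enzymes that cut, remodel and cross-link the extracellular matrix were followed in the liver of mice whose hepatocytes lack Fam210a, a gene for a mitochondrial inner membrane protein. The set comprised every protein-coding gene named as a matrix metalloproteinase (Mmp), a tissue inhibitor of metalloproteinases (Timp), an ADAMTS protease (a disintegrin and metalloproteinase with thrombospondin motifs) or a lysyl oxidase (Lox and Loxl). The rule gave 50 of the 54532 genes in the count table, namely 22 MMP genes, 4 TIMP genes, 19 ADAMTS genes and 5 lysyl oxidase genes. Mmp1a fitted the name but not the biotype, being annotated as a polymorphic pseudogene, and had no count in any library.

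Bulk poly-A RNA sequencing covered 6 livers at 5 weeks of age, 3 labelled Fam210aHKO, a hepatocyte-specific knockout, and 3 labelled Ctrl. The sources used here do not give the driver of the deletion, the alleles of the Ctrl mice, their strain or their sex. The labels number the samples without saying that each was a separate animal, so the p-values below only weigh differences against sample-to-sample spread, which may be technical. Groups were taken from the sample titles, because 2 genotype labels, of Fam210aHKO replicates 2 and 3, name other gene numbers.

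MMPs are secreted or membrane-anchored zinc enzymes that cleave collagens, elastin, laminins and other matrix proteins, and TIMPs bind and block their active sites. ADAMTS proteases are secreted enzymes that trim procollagens, cleave large proteoglycans such as versican and aggrecan, or cut von Willebrand factor, while lysyl oxidases oxidise lysines of collagen and elastin so that fibres cross-link. In liver most of these genes are known to be used by non-parenchymal cells, chiefly stellate cells, endothelial cells and macrophages, and by injured bile ducts, and a matrix protease is often made as an inactive precursor, so an mRNA level is not an enzyme activity.

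Among the MMP genes 9 form a cluster of 427.1 kb on chromosome 9 (chr9:7272514-7699585, mm10), and 7 of these carried an AP-1 motif in the promoter window of the RefSeq table (GRCm38.p6, 250 bases before to 50 bases after a transcription start). The stretches of 70 bases around it are shown because all 7 also hold a TATA motif, though the spacing of both motifs differed. These 7 genes include the member with the largest change, Mmp12, beside genes without a single count. For Mmp12 only the second listed start had both motifs, and its TATA motif lay after that start. Capitals mark the AP-1 motif TGANTCA and the TATA motif TATAAA, each line is read 5′ to 3′ on the strand of its gene, and both strands were searched.
Mmp13, chr9:7272469-7272538, plus strand: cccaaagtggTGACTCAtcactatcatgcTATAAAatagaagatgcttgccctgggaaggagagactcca
Mmp12, chr9:7347320-7347389, plus strand: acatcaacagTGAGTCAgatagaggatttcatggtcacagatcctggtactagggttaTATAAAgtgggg
Mmp1b, chr9:7388060-7388129, minus strand: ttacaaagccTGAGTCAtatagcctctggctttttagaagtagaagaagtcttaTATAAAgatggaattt
Mmp3, chr9:7445766-7445835, plus strand: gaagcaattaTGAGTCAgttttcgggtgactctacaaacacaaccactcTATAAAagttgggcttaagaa
Mmp10, chr9:7502269-7502338, plus strand: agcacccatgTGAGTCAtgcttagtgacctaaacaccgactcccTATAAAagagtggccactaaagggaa
Mmp20, chr9:7628126-7628195, plus strand: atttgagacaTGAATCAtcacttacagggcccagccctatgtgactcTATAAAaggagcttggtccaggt
Mmp7, chr9:7692017-7692086, plus strand: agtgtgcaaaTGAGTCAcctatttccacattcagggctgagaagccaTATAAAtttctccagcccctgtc

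Promoter windows were found for 32 of the 50 members (35 windows, as some genes have several starts). TGANTCA was present in 7.81% of the 32851 windows of all genes, in 7 of 11 windows of the chromosome 9 cluster and in 0 of 24 windows of other members. TATAAA was present in 13.6% of all windows, in 8 of 11 windows of the cluster and in 2 of 24 windows of other members. The CRE motif TGACGTCA (1.79% of all windows) and the ATF4 composite motif TGATGNAAT (0.965% of all windows) were in none of the 35 windows, and the PEA3 motif AGGAAG, a binding sequence of ETS factors (35.4% of all windows), was in 15 of 35. The motifs TGANTCA, TGACGTCA and TGATGNAAT exclude each other at any given start position. Among the 7 windows of members that rose, 1 held TGANTCA, the second listed start of Mmp12. A match is a description of letters in a window.

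The 300-base windows of Adamts14 and Adamts1, the members of the ADAMTS family with the lowest adjusted p, looked different. They are printed whole in the orientation of the gene, with TATAAA in capitals, and neither held TGANTCA, TGACGTCA, TGATGNAAT or AGGAAG.
Adamts14, chr10:61273370-61273669, minus strand: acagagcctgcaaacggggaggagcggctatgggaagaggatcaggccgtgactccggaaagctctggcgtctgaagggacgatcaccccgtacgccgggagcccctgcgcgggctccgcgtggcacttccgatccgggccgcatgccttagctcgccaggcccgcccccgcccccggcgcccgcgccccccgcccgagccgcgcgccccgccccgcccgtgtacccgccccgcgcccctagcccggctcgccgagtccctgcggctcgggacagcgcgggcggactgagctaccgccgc
Adamts1, chr16:85803064-85803363, minus strand: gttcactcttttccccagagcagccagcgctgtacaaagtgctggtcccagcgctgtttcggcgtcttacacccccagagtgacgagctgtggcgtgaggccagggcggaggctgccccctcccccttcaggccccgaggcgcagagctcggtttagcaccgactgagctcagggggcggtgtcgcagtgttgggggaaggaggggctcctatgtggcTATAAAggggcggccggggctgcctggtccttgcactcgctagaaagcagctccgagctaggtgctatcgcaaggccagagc
The GC content was 76.7% in the Adamts14 window and 64.7% in the Adamts1 window, against 38.7% and 40.7% in the windows of the Mmp12 starts and a median of 52.7% over all windows.

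The libraries held 12.5 to 19.7 M counts in Fam210aHKO and 13.0 to 16.9 M counts in Ctrl (M, 1e6), and 13706 genes with enough counts were tested together with edgeR's quasi-likelihood test. Levels are counts per 1e6 (CPM) over totals scaled by TMM factors, on which 3 counts correspond to 0.132 to 0.261 CPM. Fam210a had 31.7, 28.6 and 44.2 CPM in Fam210aHKO livers, against 119, 136 and 162 CPM in Ctrl livers. The tissue was hepatocyte-rich in every library, with summed hepatocyte markers (Alb, Ttr, Apoa1 and 4 others) of 84800 to 109000 CPM in Fam210aHKO and 148000 to 231000 CPM in Ctrl. The sum was thus lower in Fam210aHKO, and most of it was Alb, itself not called (log2 fold change -0.88, adjusted p = 0.449, edgeR). Of these 7 markers 0 rose and 4 fell at an adjusted p under 0.05, or 3 fell with unscaled library totals. TMM factors were 1.16 to 1.19 in Fam210aHKO and 0.7965 to 0.8869 in Ctrl. If unscaled library totals are used, the median over all tested genes goes up by 0.45 on the log2 scale, to 0.47 instead of 0.02, so higher and lower are meant relative to the median gene of the TMM fit.

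Of the 50 members, 29 passed the filter. At an adjusted p under 0.05 over all 13706 genes, 8 members rose in Fam210aHKO (Mmp12, Adamts14, Mmp28, Mmp2, Mmp11, Adamts9, Adamts1 and Loxl2), 1 fell (Mmp19), and 20 were not called. Over all tested genes 14% were called higher and 13.5% lower. The 8 made up 27.6% of the tested members, a figure that only describes them, since a gene can pass the filter through its high group alone. The median log2 fold change was 0.61 over the tested members, against 0.02 over all tested genes, and 21 of the 29 values were above 0. By family the median was 0.66 for the 10 tested MMPs, 0.64 for the 12 tested ADAMTS genes and 0.78 for the 5 lysyl oxidases, and the tested TIMPs lay on either side of 0 at 0.39 and -0.50. CPM values of the groups did not overlap for 11 members with higher Fam210aHKO values and 3 with lower ones, where 22% and 20.7% of all tested genes did so. With library totals the members' median became 1.06 and 17 members were called higher and 0 lower, beside 42.7% of all genes called higher and 6.33% lower. Among members not called, Adamts6, Adamts10, Adamts13, Mmp15 and Loxl4 had values below 0 with TMM and above 0 with library totals.

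**Figure D1:**
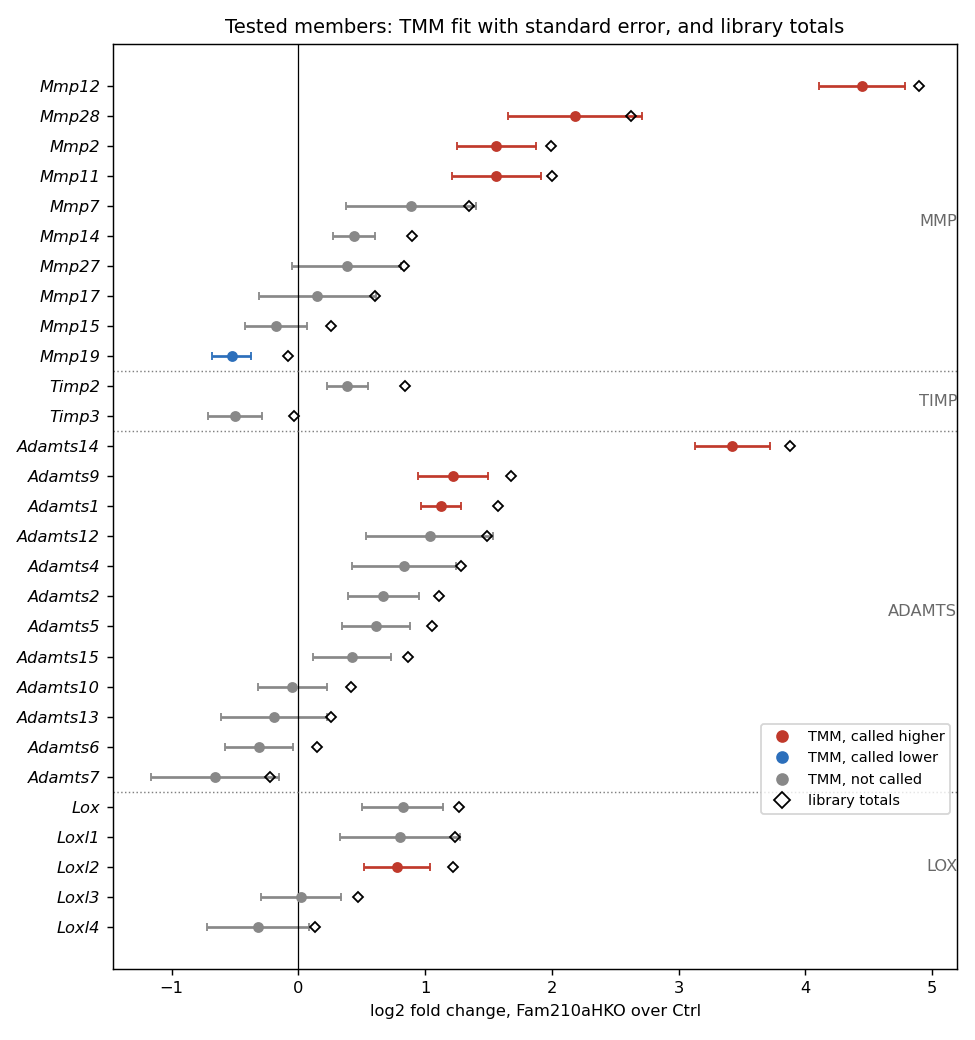
Log2 fold changes (Fam210aHKO over Ctrl, x axis) of the 29 tested members, grouped by family. Circles with bars are the TMM fit with its standard error and open diamonds are the fit with library totals, which lie to the right of the circles for all members; Mmp12 at 4.45 and Adamts14 at 3.42 stand farthest from 0.

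Mmp12, macrophage elastase, which is known to be made mainly by macrophages and to cleave elastin, had the largest change of the set. It had 6.12, 7.43 and 9.12 CPM in Fam210aHKO livers, against 0.435, 0.406 and 0.202 CPM in Ctrl livers. In raw counts these were 128, 108 and 208 in Fam210aHKO and 5, 5 and 3 in Ctrl, so the gene was barely detected in any Ctrl library and clearly present in each Fam210aHKO library. This was a 21.9-fold difference, or 4.45 on the log2 scale (SE 0.340, adjusted p = 1.14e-05, edgeR). Per kilobase its share of the summed MMP mRNA was 3.29% in Fam210aHKO and 0.169% in Ctrl, rank 6 against rank 13 of the 22 genes. The gene lies at chr9:7344381-7369499 (mm10) and shares 157 exon bases (2.17%) with Mmp1b, which had 0 counts, on the opposite strand.

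Mmp12 was set beside 10 marker genes of macrophages that derive from monocytes or are lipid-associated. Of these 10 genes, 6 rose (Gpnmb, Cd63, Trem2, Spp1, Fabp5 and Cd9) and 0 fell, and their summed level was 462 to 543 CPM in Fam210aHKO and 131 to 152 CPM in Ctrl. Gpnmb, a lysosomal membrane glycoprotein of such cells, averaged 20.0 ± 3.61 CPM in Fam210aHKO and 0.346 ± 0.304 CPM in Ctrl (SD, n = 3 each), with 0 counts in Ctrl replicate 1. Cd63, a tetraspanin of lysosomes and exosomes, averaged 144 ± 36.3 CPM in Fam210aHKO and 6.52 ± 1.86 CPM in Ctrl. Spp1, which is also on the cholangiocyte list, averaged 200 ± 66.2 CPM in Fam210aHKO and 42.4 ± 8.75 CPM in Ctrl. Spp1 and Cd63 made up most of the summed level in Fam210aHKO. The lineage markers Lyz2 (log2 fold change 0.13, adjusted p = 0.642 with edgeR), Ly6c2 (0.38, adjusted p = 0.633), Ccr2 (0.71, adjusted p = 0.199) and Itgax (1.18, adjusted p = 0.099) were not called. Of 8 Kupffer cell markers 1 rose (Marco) and 1 fell (C6), with a summed level of 298 to 588 CPM in Fam210aHKO and 450 to 552 CPM in Ctrl. The part of these cells in the Mmp12 result was not tested. In bulk tissue a difference in the number of cells and a difference in RNA per cell cannot be told apart.

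Mmp12 was the only gene of the chromosome 9 cluster to be called. Mmp10, Mmp1b and Mmp20 had 0 counts in all 6 libraries, Mmp10 encoding a stromelysin and Mmp20 the MMP of tooth enamel. Mmp13, a collagenase of rodent stromal cells, stayed under the filter with 28, 6 and 5 counts in Fam210aHKO and 1, 2 and 2 counts in Ctrl. Its ratio of scaled totals was 5.18 (95% exact binomial interval 2.04 to 16.8, counting error only), its groups did not overlap, and in the fit without a filter its adjusted p was 0.0547. Fam210aHKO replicate 1 alone held 28 of the 39 Fam210aHKO counts. Mmp3, stromelysin 1, had 3, 17 and 3 counts in Fam210aHKO and 3, 4 and 8 in Ctrl, a ratio of 1.02 (0.509 to 2.1) that rests on 1 library. Mmp7, matrilysin, known from injured bile duct epithelium, had 1.91, 0.757 and 1.10 CPM in Fam210aHKO and 1.04, 0.812 and 0.269 CPM in Ctrl. These groups overlapped (log2 fold change 0.89, SE 0.514, adjusted p = 0.228 with edgeR). Mmp27 had 0.622 to 1.10 CPM in Fam210aHKO and 0.435 to 0.812 CPM in Ctrl and was not called (0.38, adjusted p = 0.551).

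**Figure D2:**
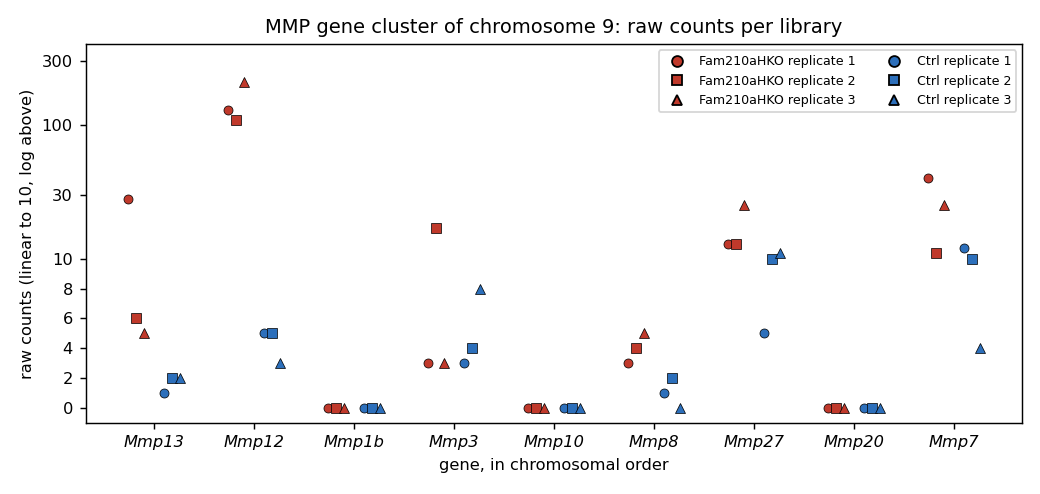
Raw counts per library (y axis, linear to 10 and logarithmic above) of the 9 genes of the chromosome 9 MMP cluster, in chromosomal order; circle, square and triangle are replicates 1, 2 and 3, with Fam210aHKO in red left of Ctrl in blue. Mmp12 reached 108 to 208 counts in Fam210aHKO while Mmp1b, Mmp10 and Mmp20 stayed at 0 in all libraries.

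Neutrophils carry Mmp8 (neutrophil collagenase), Mmp9 (gelatinase B) and Mmp25, a membrane-anchored MMP of leukocytes. Mmp9 had 21 counts in all Fam210aHKO libraries together and 14 in all Ctrl libraries, a scaled ratio of 0.997 (95% exact interval 0.483 to 2.12). Mmp8 had 12 counts in Fam210aHKO and 3 in Ctrl (ratio 2.66, 0.717 to 14.7), and Mmp25 had 16 counts in Fam210aHKO and 6 in Ctrl (ratio 1.77, 0.659 to 5.53). At these depths no difference was detectable for the 3 genes. Neutrophil markers were equally sparse, since 8 of 10 were under the filter and their summed level was 3.06 to 6.33 CPM in Fam210aHKO and 3.39 to 5.36 CPM in Ctrl.

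Gelatinase A and its activators lie at the level where single libraries can be read. Mmp2, gelatinase A, which degrades basement membrane collagen IV and denatured collagens, had 8.66, 8.67 and 14.3 CPM in Fam210aHKO, against 4.87, 2.11 and 3.76 CPM in Ctrl (chr8:92827291-92853420, mm10). All 3 Fam210aHKO libraries exceeded all 3 Ctrl libraries, and the fitted difference was 1.56 on the log2 scale (SE 0.313, adjusted p = 0.00378, edgeR). Mmp14, the membrane-type MMP that activates pro-MMP-2 in a complex with TIMP-2, had 54.5, 60.1 and 76.7 CPM in Fam210aHKO, against 44.6, 52.5 and 44.1 CPM in Ctrl. The groups did not overlap, yet the change of 0.44 (SE 0.163) was not called, with an adjusted p of 0.0678 in edgeR and of 0.0335 in edgeR with the replicate number as a block. Timp2 had 23.4, 20.6 and 26.5 CPM in Fam210aHKO, against 19.4, 17.8 and 16.8 CPM in Ctrl (log2 fold change 0.39, SE 0.160, adjusted p = 0.0966). Library totals, which shift all genes, gave adjusted p-values of 0.00123 for Mmp14 and 0.00249 for Timp2.

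Ratios between members of one library do not depend on how libraries are scaled. Per kilobase, Mmp14 over Timp2 was 1.52, 1.91 and 1.89 in Fam210aHKO and 1.50, 1.93 and 1.72 in Ctrl, an almost complete overlap. Mmp2 over Timp2 was 0.427, 0.487 and 0.624 in Fam210aHKO and 0.290, 0.137 and 0.259 in Ctrl. With 3 libraries against 3 an exact two-sided permutation test cannot go below p = 0.1, so these ratios are given as values.

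Mmp19 was the only member that fell. This secreted MMP, which cleaves basement membrane proteins, had 29.8, 31.9 and 37.3 CPM in Fam210aHKO, against 53.3, 42.9 and 46.4 CPM in Ctrl (chr10:128790910-128800824, mm10). The groups did not overlap, and the fitted difference was -0.53 on the log2 scale (SE 0.153, adjusted p = 0.0250, edgeR). With library totals it was -0.08 (adjusted p = 0.715), and the call was also lost without Fam210aHKO replicate 1 (adjusted p = 0.086), Fam210aHKO replicate 2 (0.0923), Ctrl replicate 1 (0.0805) or Ctrl replicate 3 (0.0509). The ratio to Mmp14 within each library does not depend on scaling. Mmp14 over Mmp19 per kilobase was 1.09, 1.12 and 1.22 in Fam210aHKO and 0.496, 0.725 and 0.564 in Ctrl. Mmp14 itself had a log2 fold change of 0.44 with TMM and 0.90 with library totals. The ratio therefore cannot tell a fall of Mmp19 from a rise of Mmp14. Mmp19 held 29.4% of the summed MMP mRNA per kilobase in Fam210aHKO and 47.5% in Ctrl, while Mmp14 held 33.7% in Fam210aHKO and 27.9% in Ctrl, so that rank 1 belonged to Mmp14 in Fam210aHKO and to Mmp19 in Ctrl. Of the Mmp19 exon bases 22.3% are shared with Tmem198b on the other strand, which had 136 counts in Fam210aHKO and 103 in Ctrl beside Mmp19 counts of 1936 in Fam210aHKO and 1832 in Ctrl. The sources used here do not say whether counting used strand.

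Mmp11 and Mmp28 also rose, at low levels. Mmp11, stromelysin 3, which is activated inside the cell by furin, had 2.58, 2.20 and 3.33 CPM in Fam210aHKO, against 0.870, 0.568 and 1.28 CPM in Ctrl (chr10:75923222-75936496, mm10; log2 fold change 1.56, SE 0.351, adjusted p = 0.00723, edgeR). It shares 155 exon bases (5.58%) with Chchd10 on the opposite strand, a gene with 16089 counts in Fam210aHKO and 8107 in Ctrl beside Mmp11 counts of 162 in Fam210aHKO and 36 in Ctrl, so stray counts from Chchd10 cannot be told apart. Mmp28, epilysin, had 1.87, 2.27 and 1.01 CPM in Fam210aHKO, against 0.696, 0.162 and 0.269 CPM in Ctrl (chr11:83440768-83463071, mm10; log2 fold change 2.18, SE 0.528, adjusted p = 0.0105, edgeR). The Ctrl values rest on 14 counts in all, and without Ctrl replicate 3 the adjusted p was 0.055.

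The remaining MMPs were not called or not testable. Mmp15, a membrane-type MMP with rank 3 of the family per kilobase in both groups, had 16.7, 16.2 and 20.7 CPM in Fam210aHKO and 22.1, 12.4 and 26.2 CPM in Ctrl, with the Fam210aHKO values inside the Ctrl range (adjusted p = 0.634, edgeR). Mmp17, a membrane-anchored MMP, had 0.550 to 1.10 CPM in Fam210aHKO and 0.435 to 0.974 CPM in Ctrl. Under the filter, the membrane-type Mmp16 had 3 counts in Fam210aHKO and 11 in Ctrl (ratio 0.181, 95% exact interval 0.0325 to 0.686, counting error only), with an adjusted p of 0.236 in edgeR without a filter. Mmp24, another membrane-type member, had 14 counts in Fam210aHKO and 1 in Ctrl (ratio 9.3, 1.42 to 393; adjusted p = 0.133 without a filter), but 13.6% of its exon bases are shared with BC029722, which had 410 counts in Fam210aHKO and 158 in Ctrl. Mmp23 had 39 counts in Fam210aHKO and 16 in Ctrl (ratio 1.62, 0.884 to 3.1), and Mmp21 had 0 counts in Fam210aHKO and 1 in Ctrl.

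**Figure D3:**
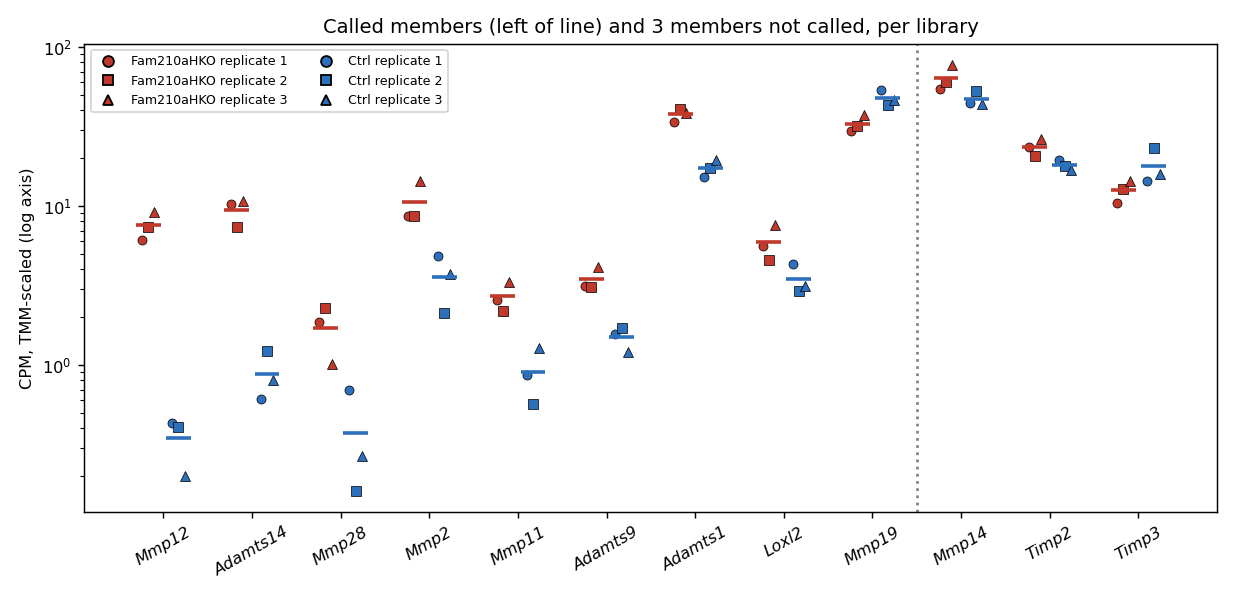
CPM per library (TMM-scaled, log axis) of the 9 called members, left of the dotted line, and of Mmp14, Timp2 and Timp3, right of it; Fam210aHKO (red) stands left of Ctrl (blue), symbols are replicates 1 to 3 and the horizontal line is the mean of 3 libraries. The groups are farthest apart for Mmp12 and Adamts14, and Mmp19 alone of the called members has its Fam210aHKO values below those of Ctrl.

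None of the 4 inhibitors was called. Timp3, the TIMP that binds to the matrix and also blocks ADAMTS proteases and ADAM17, had 10.5, 12.9 and 14.26 CPM in Fam210aHKO, against 14.26, 23.2 and 15.8 CPM in Ctrl. Fam210aHKO replicate 3 and Ctrl replicate 1 all but touched, and the log2 fold change was -0.50 (SE 0.214) with an adjusted p of 0.108 in edgeR, 0.0482 in edgeR with the replicate block and 0.896 with library totals. Within libraries Timp2 over Timp3 per kilobase was 4.66, 3.34 and 3.88 in Fam210aHKO and 2.84, 1.60 and 2.22 in Ctrl, and Mmp14 over Timp3 was 7.08, 6.39 and 7.35 in Fam210aHKO and 4.27, 3.09 and 3.81 in Ctrl. Timp3 shares 21.3% of its exon bases with Syn3 on the other strand, which had 29 counts in Fam210aHKO and 32 in Ctrl. Timp1, the inhibitor known to be induced in injured and fibrotic liver, had 5, 1 and 7 counts in Fam210aHKO and 3, 0 and 0 counts in Ctrl, a ratio of 2.88 (95% exact interval 0.791 to 15.8), which at this depth is no detectable difference. Timp4 had 3, 1 and 1 counts in Fam210aHKO and 0 in Ctrl. With Ctrl set at 3 counts over the group, and the Fam210aHKO counts taken as exact, the Timp4 ratio was 1.11. Without a filter the adjusted p of Timp4 was 0.248 (edgeR).

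Summed over the families, the balance of MMP to TIMP mRNA did not separate the groups. The sum of all MMPs over the sum of all TIMPs, per kilobase, was 3.78, 4.27 and 4.13 in Fam210aHKO and 4.35, 3.51 and 4.56 in Ctrl. The summed MMP level was 28.8 to 36.8 CPM per kilobase in Fam210aHKO and 26.0 to 30.5 in Ctrl, and that of the TIMPs was 6.95 to 8.90 in Fam210aHKO and 6.25 to 7.41 in Ctrl. The ADAMTS sum did not overlap, at 13.3 to 16.7 CPM per kilobase in Fam210aHKO and 8.02 to 9.42 in Ctrl. The lysyl oxidase sum overlapped slightly, at 3.53 to 5.54 in Fam210aHKO and 2.88 to 3.57 in Ctrl.

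**Figure D4:**
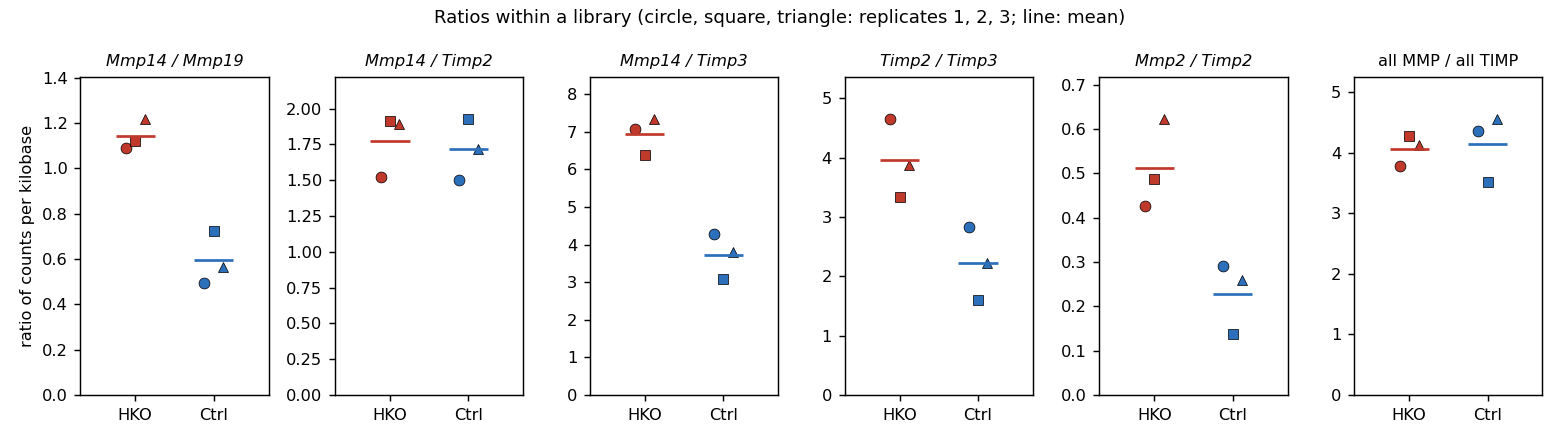
Ratios of counts per kilobase between members within each library (y axes from 0, one panel per ratio), for Fam210aHKO (HKO, red) and Ctrl (blue); symbols are replicates 1 to 3 and lines are means. Mmp14 over Mmp19 (1.09 to 1.22 in Fam210aHKO, 0.496 to 0.725 in Ctrl) and Mmp14 over Timp3 separate the groups, whereas Mmp14 over Timp2 and all MMP over all TIMP do not.

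Of the ADAMTS genes, Adamts14, Adamts9 and Adamts1 rose. Adamts14 encodes an enzyme that, with Adamts2 and Adamts3, removes the N-terminal propeptide of fibrillar procollagens. It had 10.2, 7.43 and 10.75 CPM in Fam210aHKO, against 0.609, 1.22 and 0.807 CPM in Ctrl (chr10:61197112-61273438, mm10; log2 fold change 3.42, SE 0.296, adjusted p = 2.18e-05, edgeR). The lowest Fam210aHKO value lay above the highest Ctrl value. Adamts2 had 10.9, 9.22 and 19.9 CPM in Fam210aHKO and 10.2, 7.23 and 7.87 CPM in Ctrl, overlapping and not called (0.67, SE 0.281, adjusted p = 0.102), but called without Fam210aHKO replicate 2 (adjusted p = 0.0464). Adamts3, under the filter, had 27 counts in Fam210aHKO and 12 in Ctrl (ratio 1.5, 95% exact interval 0.732 to 3.24). Of the mRNA of these 3 procollagen N-proteinases per kilobase, Adamts14 was 61.6%, 57.6% and 47.9% in Fam210aHKO, against 9.22%, 21.1% and 15.4% in Ctrl. In the whole family it had rank 2 in Fam210aHKO (12.6% of the sum) and rank 8 in Ctrl (1.99%).

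The proteoglycan-cleaving ADAMTS genes had smaller fitted changes than Adamts14. Adamts1, the most abundant ADAMTS per kilobase in both groups and known as a versican-cleaving enzyme, had 33.9, 41.0 and 38.6 CPM in Fam210aHKO, against 15.1, 17.4 and 19.6 CPM in Ctrl (chr16:85793827-85803113, mm10; log2 fold change 1.12, SE 0.159, adjusted p = 0.000475, edgeR). Its replicates were tight, with a coefficient of variation of 9.52% in Fam210aHKO and 12.8% in Ctrl. Adamts5, an aggrecan-cleaving enzyme whose gene lies 53.1 kb from Adamts1, had 5.84, 6.26 and 3.86 CPM in Fam210aHKO and 4.17, 2.60 and 3.63 CPM in Ctrl. It overlapped and was not called (0.61, SE 0.271, adjusted p = 0.120), and without Fam210aHKO replicate 3 its adjusted p was 0.0438. Adamts9, another versican-cleaving enzyme, had 3.16, 3.10 and 4.12 CPM in Fam210aHKO, against 1.57, 1.71 and 1.21 CPM in Ctrl (chr6:92772699-92943492, mm10; log2 fold change 1.22, SE 0.278, adjusted p = 0.00767, edgeR). Adamts4, also an aggrecan-cleaving enzyme, had 0.861, 1.45 and 1.36 CPM in Fam210aHKO and 0.696, 0.893 and 0.471 CPM in Ctrl, and Adamts15 had 1.77, 1.65 and 1.76 CPM in Fam210aHKO and 1.48, 0.974 and 1.41 CPM in Ctrl. Neither was called (adjusted p = 0.157 and 0.342, edgeR).

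Adamts13, which cuts von Willebrand factor and is known as a product of stellate cells, had the highest coefficient of variation among Fam210aHKO libraries of the 29 tested members, 72.6%. It had 3.97, 2.06 and 9.17 CPM in Fam210aHKO and 5.04, 6.25 and 6.32 CPM in Ctrl, so 2 Fam210aHKO libraries lay below the whole Ctrl range and 1 above it. It was not called (log2 fold change -0.20, SE 0.417, adjusted p = 0.767, edgeR), and without Fam210aHKO replicate 3 it was called lower (-0.94, adjusted p = 0.046). Adamts7 and Adamts12, which cleave cartilage oligomeric matrix protein, were not called. Adamts7 had 5.31, 2.82 and 5.26 CPM in Fam210aHKO and 14.6, 3.17 and 3.70 CPM in Ctrl, where Ctrl replicate 1 alone set the sign, since the log2 fold change was -0.66 with it and 0.38 without it. Adamts12 had 0.861, 1.51 and 2.94 CPM in Fam210aHKO and 0.435, 1.06 and 1.08 CPM in Ctrl (1.04, adjusted p = 0.151). It was called without Fam210aHKO replicate 1 (1.36, adjusted p = 0.0463), and without Fam210aHKO replicate 3 the value was 0.41 (adjusted p = 0.576). Adamts6 and Adamts10, linked to fibrillin microfibrils, had log2 fold changes of -0.31 (adjusted p = 0.421) and -0.05 (adjusted p = 0.918). Adamts16 had 11, 1 and 8 counts in Fam210aHKO and 0 in Ctrl. Its ratio was 4.43 with Ctrl set at 3 counts over the group and the Fam210aHKO counts taken as exact. Without a filter it was called (adjusted p = 0.0292, edgeR). Adamts8 had 2 counts in Fam210aHKO and 3 in Ctrl, Adamts17, Adamts19 and Adamts20 had 0 counts in Fam210aHKO and 1 in Ctrl each, and Adamts18 had 0 throughout.

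Of the 5 lysyl oxidases, which were all tested, Loxl2 alone was called. Loxl2, which cross-links collagen IV, had 5.60, 4.61 and 7.55 CPM in Fam210aHKO, against 4.35, 2.92 and 3.16 CPM in Ctrl (chr14:69609068-69695834, mm10; log2 fold change 0.78, SE 0.262, adjusted p = 0.0478, edgeR). The groups were separated by a narrow gap between Fam210aHKO replicate 2 and Ctrl replicate 1, and the call was lost without Fam210aHKO replicate 1 (adjusted p = 0.0735), Fam210aHKO replicate 3 (0.148), Ctrl replicate 2 (0.136) or Ctrl replicate 3 (0.157). Lox, the founding member, which acts on fibrillar collagen and elastin, had 2.11, 4.33 and 4.08 CPM in Fam210aHKO and 2.26, 1.79 and 1.88 CPM in Ctrl. Fam210aHKO replicate 1 lay within the Ctrl range, and the adjusted p was 0.0802 with it (0.82, SE 0.320) and 0.0197 without it. Loxl1, needed for elastic fibres, had 4.40, 2.06 and 4.17 CPM in Fam210aHKO and 3.74, 0.731 and 1.75 CPM in Ctrl, not called in the unblocked fit (0.80, adjusted p = 0.239) and called with the replicate block (0.89, adjusted p = 0.0423) or without Ctrl replicate 1 (1.49, adjusted p = 0.0485). Loxl4 had 1.96, 4.75 and 7.06 CPM in Fam210aHKO and 3.65, 6.09 and 7.39 CPM in Ctrl, and it was not called (-0.32, adjusted p = 0.602). Loxl3 was level (0.02, SE 0.314, adjusted p = 0.968, edgeR), at 1.20 to 1.62 CPM in Fam210aHKO and 1.22 to 1.41 CPM in Ctrl.

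Fam210aHKO replicate 3 was the highest knockout library for 20 of the 29 tested members (69%), against 37.3% of all tested genes. Without that library 8 members were called higher and 2 lower. Of the mesenchymal marker lists, only that of activated stellate cells and myofibroblasts had summed levels higher in Fam210aHKO without overlap. Of 10 activated stellate cell and myofibroblast markers, 9 were tested and 4 rose (Col1a1, Col3a1, Lum and Pdgfra), their summed level being 181 to 352 CPM in Fam210aHKO and 126 to 153 CPM in Ctrl. That count was 2 without Fam210aHKO replicate 3 or Ctrl replicate 1 and 1 without Ctrl replicate 3. Col1a1 and Col3a1 are counted again among the collagens below, and Lum among the other matrix proteins, so these calls are not separate. Of the contractile markers, Acta2 had a log2 fold change of 0.08 (adjusted p = 0.929, edgeR) and Tagln stayed under the filter. Of 10 quiescent stellate cell markers 1 rose (Hhip; 0 without Fam210aHKO replicate 1, Ctrl replicate 1 or Ctrl replicate 3), with a summed level of 270 to 388 CPM in Fam210aHKO and 260 to 304 CPM in Ctrl, and of 8 tested portal fibroblast and mesothelial markers 1 rose (Eln; 0 without Ctrl replicate 3) and 3 fell (Gas1, Upk3b and Msln). The portal fibroblast and mesothelial sum was 32.3 to 56.2 CPM in Fam210aHKO and 37.9 to 52.9 CPM in Ctrl. Eln is counted again among the other matrix proteins below. Sinusoidal endothelial markers summed to 323 to 518 CPM in Fam210aHKO and 478 to 624 CPM in Ctrl. Of these 10 genes 0 rose and 2 fell, or 7 with the replicate block and 0 with library totals. Without Fam210aHKO replicate 3 the number that fell was also 7, and without Fam210aHKO replicate 1 or 2 or Ctrl replicate 2 or 3 it was 0. Cholangiocyte markers, of which 5 of 8 were tested and 2 rose, summed to 154 to 293 CPM in Fam210aHKO and 54.2 to 74.0 CPM in Ctrl, most of it Spp1, which is also on the macrophage list. The number that rose was 5 without Fam210aHKO replicate 2 and 4 with library totals. The part of these cell types in the changes of Mmp2, Mmp11, Adamts14, Loxl2 or Mmp19 was not tested.

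Genes of several substrates of these enzymes rose as well, though sums over the substrate lists, set largely by a few abundant genes, were not higher. Of 20 fibrillar and basement membrane collagen genes 17 were tested, 7 rose and 2 fell, with a median log2 fold change of 0.63 against 0.02 over all genes. The summed collagen level was 648 to 1040 CPM in Fam210aHKO and 792 to 1150 CPM in Ctrl. Col18a1 was the most abundant gene in this sum, so the sum says little about the other chains. The collagen IV chains Col4a3 (log2 fold change 1.80, adjusted p = 0.00497, edgeR), Col4a2 (1.04, adjusted p = 0.00657) and Col4a1 (0.84, adjusted p = 0.0112) rose, and Col18a1, the source of endostatin, fell to 398 ± 57.9 CPM in Fam210aHKO, against 748 ± 183 CPM in Ctrl. Col5a3 fell as well (-1.31, adjusted p = 0.0121, edgeR). With library totals 14 rose and 1 fell, and leaving out single Ctrl libraries left 3 or 4 higher. Of 30 other matrix proteins 24 were tested, 11 rose and 1 fell, with 6 higher without Fam210aHKO replicate 3, 7 without Ctrl replicate 1 and 5 without Ctrl replicate 3. The summed level of these other matrix genes was lower in Fam210aHKO, at 2470 to 3710 CPM, against 4160 to 5090 CPM in Ctrl. Most of that sum came from Fn1 and Vtn, so it says little about the other genes. Fn1 averaged 1020 ± 371 CPM in Fam210aHKO and 1770 ± 442 CPM in Ctrl (log2 fold change -0.79, adjusted p = 0.057, edgeR). Vtn averaged 900 ± 152 CPM in Fam210aHKO and 2220 ± 258 CPM in Ctrl. Versican, a substrate of Adamts1, Adamts4, Adamts5 and Adamts9, had its mRNA Vcan at 27, 25 and 21 counts in Fam210aHKO, against 3, 1 and 2 counts in Ctrl (log2 fold change 2.99, SE 0.545, adjusted p = 0.002, edgeR). Elastin, the substrate of Mmp12, had its mRNA Eln at 25.1 ± 9.68 CPM in Fam210aHKO and 9.91 ± 4.37 CPM in Ctrl (1.34, adjusted p = 0.0103). The basement membrane genes Nid1 (1.33, adjusted p = 0.000757) and Lamc1 (0.95, adjusted p = 0.00151) rose, and Vtn, vitronectin, a hepatocyte product, fell (-1.30, adjusted p = 0.00118).

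Among genes of collagen maturation, Bmp1 alone fell, while the other called genes rose. Of 18 collagen maturation genes 15 were tested, 6 rose and 1 fell, with 3 higher without Fam210aHKO replicate 2 or 3 and 2 without Ctrl replicate 2 or 3. P4ha2, a subunit of prolyl 4-hydroxylase, averaged 11.0 ± 0.969 CPM in Fam210aHKO and 3.05 ± 0.0443 CPM in Ctrl (log2 fold change 1.85, adjusted p = 7.56e-05, edgeR), and the cross-linking transglutaminase Tgm2 rose by 0.63 (adjusted p = 0.00807). Bmp1, the procollagen C-proteinase that also activates Lox, averaged 62.7 ± 6.69 CPM in Fam210aHKO and 146 ± 21.3 CPM in Ctrl (-1.22, adjusted p = 0.000258). Adamts14 and Bmp1, which encode enzymes for opposite ends of procollagen, changed in opposite directions. Their directions were the same with library totals (3.88 for Adamts14 and -0.77 for Bmp1). This holds for these genes only, since Adamts2 was not called and Pcolce, also on the maturation list, rose (0.81, adjusted p = 0.035, edgeR).

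Of 30 other proteases and inhibitors acting on matrix, 24 were tested, 3 rose and 3 fell, with a median of 0.15. Ctsl, a lysosomal cysteine protease, averaged 3210 ± 880 CPM in Fam210aHKO and 1100 ± 316 CPM in Ctrl (log2 fold change 1.54, adjusted p = 0.00266, edgeR), and Plaur, the urokinase receptor, averaged 2.49 ± 1.03 CPM in Fam210aHKO and 0.520 ± 0.0489 CPM in Ctrl (2.23, adjusted p = 0.0031). Plg, plasminogen, and Serpinf2, its plasmin inhibitor, which are both hepatocyte products, fell (-1.39, adjusted p = 0.00154, and -1.12, adjusted p = 0.00103). Of 7 ADAMTS-like genes, which lack the protease domain, 5 were tested and Adamtsl2 rose (1.11, adjusted p = 0.00697).

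Of 24 genes known to induce or regulate transcription of matrix proteases, 18 were tested, 5 rose and 0 fell, with 3 higher without Fam210aHKO replicate 1 or Ctrl replicate 3 and 12 with library totals. Ets2, an ETS factor, averaged 89.7 ± 13.9 CPM in Fam210aHKO and 31.3 ± 2.66 CPM in Ctrl (log2 fold change 1.52, adjusted p = 6.43e-05, edgeR). Jun, a subunit of AP-1, averaged 43.7 ± 6.23 CPM in Fam210aHKO and 23.3 ± 3.06 CPM in Ctrl (0.91, adjusted p = 0.0022), and the matricellular gene Ccn2 averaged 24.2 ± 4.49 CPM in Fam210aHKO and 12.2 ± 2.30 CPM in Ctrl (0.99, adjusted p = 0.00372). The growth factor gene Pdgfa (1.04, adjusted p = 0.0169) and the hypoxia factor Hif1a (0.41, adjusted p = 0.0411) made up the rest of the 5. Tgfb1 (0.20, adjusted p = 0.56) and Il1b (-0.32, adjusted p = 0.479) were not called, and Tnf, Osm, Il6, Il11 and Fosl1 stayed under the filter. Of the other AP-1 genes, Fos (0.17, adjusted p = 0.771) and Junb (0.40, adjusted p = 0.313) were not called. Fosl2 (0.46, adjusted p = 0.127) and Jund (0.51, adjusted p = 0.129) were not called without the replicate block and were called with it (adjusted p = 0.0336 for Fosl2 and 0.0142 for Jund).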

How the data were processed

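The authors deposited raw counts, 1 whole number for each Ensembl gene in each library, beside FPKM values, which served only in alternatives. The submitters' processing notes name the build mm10 and the tools STAR, featureCounts, Trimmomatic, FastQC and DESeq2. Strand setting and multimapping were not given, so reads of overlapping genes and close copies cannot be told apart. Members and gene lists were chosen with earlier results of these data known. Of 221 list entries 220 were matched, and 50 of 50 members were found in GENCODE M21 (48 with the same start and end). Named list genes were those called with the lowest p, at most 3 in a list's main direction and 2 in the opposite one, and in lists with no call the 2 of highest level. Alb, Trem2, Fabp5, Cd9, Lyz2, Ly6c2, Ccr2, Itgax, Acta2, Tagln, Pdgfra, Fn1, Pcolce, Pdgfa, Hif1a, Tgfb1, Il1b, Tnf, Osm, Il6, Il11, Fos, Fosl1, Fosl2, Junb and Jund were named after their values were seen.

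Fam210aHKO (n = 3) was set against Ctrl (n = 3) in edgeR 4.0.16 under R 4.3.3, with filterByExpr (minimum count 10), TMM scaling, the quasi-likelihood F test and Benjamini-Hochberg adjustment over 13706 genes. Standard errors were derived from F (log2 fold change over its root). The common biological coefficient of variation was 0.196. Libraries held 12.5 to 19.7 M counts (M, 1e6). Levels between genes use CPM per kilobase, by the lengths in the count table. Ratios of untested genes have 95% exact binomial intervals, for counting error only. Where Ctrl had 0 counts, ratios set Ctrl at 3 counts and took the Fam210aHKO counts as exact. Sequences came from RefSeq tables of GRCm38.p6.

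Same-numbered samples deviated together (correlations of 0.245, 0.182 and 0.155, against -0.141 to -0.0262 for other pairs), so replicate number, whose meaning the labels do not state, was tried as a block. The remaining alternatives were library totals, upper-quartile and median-of-ratios scaling, no filter, a filter of 1 CPM in 3 libraries, limma-voom and limma on FPKM (limma 3.58.1, pseudocounts 1 and 0.1 before log2), DESeq2 1.42.0, the legacy robust test, only protein-coding genes, an adjusted p under 0.01 and leaving out each library. The scripts were tested on simulated data.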

Additional observations from a re-analysis of the deposited data

How the results depend on the processing

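Over the 29 tested members and 19 alternatives, 479 of 536 values kept direction and side of the threshold. Mmp12, Adamts14, Adamts1 and Adamts9 were called in all of these, and Mmp11 in all 17 that tested it. Members called higher (8) became 17 with library totals and 4 with log2(FPKM + 0.1), and members called lower (1) became 0 with library totals, no filter or an adjusted p under 0.01; leaving out single libraries gave 6 to 9 higher and 0 to 2 lower. With the replicate block 10 were higher (Mmp14 and Loxl1 added) and 2 lower (Timp3 added), and the block changed no other member's call. Called genes in all (3774) were 6714 with library totals, 2473 with log2(FPKM + 1), 2424 with log2(FPKM + 0.1), 2162 at an adjusted p under 0.01, 4896 with the block, and 2767 to 3699 when single libraries were left out. Higher calls in lists moved too: with library totals to 14 for collagens (7), 10 for collagen maturation (6), 10 for other proteases (3) and 12 for inducers (5); with log2(FPKM + 1) to 0, 2, 2 and 3 in that order and 4 for other matrix proteins (11); at an adjusted p under 0.01 to 2, 2, 2 and 3, and 5 for other matrix proteins. Reversed log2 fold changes, none of them called, were with library totals 0.41 for Adamts10, 0.26 for Mmp15, 0.14 for Adamts6, 0.13 for Loxl4, 0.26 for Adamts13 and 0.25 for S100a9; with limma-voom 0.0092 for Adamts10; and with FPKM -0.015 and -0.046 for Loxl3. Leaving out single libraries reversed Adamts10 (range -0.2866 to 0.0633), Mmp15 (-0.446 to 0.0327), Loxl3 (-0.138 to 0.0963), Adamts7 (-1.03 to 0.38), Loxl4 (-0.80 to 0.0322), Mmp17 (-0.234 to 0.44), Adamts13 (-0.94 to 0.165), S100a9 (-0.60 to 0.18) and Itga2b (lowest -0.0146). Mmp2 (adjusted p = 0.0539) and Mmp28 (0.0505) lost their calls with log2(FPKM + 0.1), Loxl2 with median-of-ratios scaling (0.0512), limma-voom (0.0539) and both FPKM fits (0.131 and 0.142), and Mmp19 without a filter (0.0617); the cause was not tested. Depth limits the 21 members under the filter, where 3 counts are 0.132 to 0.261 CPM.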
